A study of Mus musculus with 10 samples.

Results

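Immediate early genes, represented by Fos, Fosb, Jun, Junb, Jund, Egr1, Atf3, Ier2, Dusp1 and Zfp36, were followed in single-cell RNA sequencing data of mouse brain immune cells. They were chosen by name, and all 10 of them are among the 31053 genes of the count matrix. Immediate early genes are transcribed within minutes of a stimulus without the need for new protein synthesis, after kinase cascades activate factors such as SRF and CREB that already sit at their promoters. Fos and Fosb encode Fos proteins and Jun, Junb and Jund encode Jun proteins, which pair as the AP-1 transcription factor. Egr1 and Atf3 encode further transcription factors, whereas Dusp1 encodes a phosphatase that switches off MAP kinases and Zfp36 encodes tristetraprolin, which destabilizes cytokine mRNAs. Ier2 encodes a nuclear protein of the same response. These genes are also known to be induced when tissue is dissociated enzymatically, and in this study the transcription inhibitor actinomycin D was used during processing to limit that.

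CD45+ cells were sorted from whole brains, and each genotype and age was represented by 1 library made from 3 pooled mice (2 males and 1 female). WT mice (Nlrp3 intact, no transgene) and Nlrp3KO mice (Nlrp3 deleted in the full body) were sampled at 3, 6 and 9 months. APP/PS1 mice, which overexpress mutant human APP and PS1 in neurons of the central nervous system, and Nlrp3KO APP/PS1 mice, which carry both, were sampled at 3 and 9 months. The 4 genotypes were littermates, and the sort and actinomycin D were shared by all 10 libraries. Each of the 3 batch numbers in the annotation holds the libraries of 1 age, which means that batch and age cannot be told apart. Genotypes of the same age share a batch. A library is a pool, so p-values over libraries measure the spread between pools. Those of edgeR and DESeq2 use a spread estimated in part over all genes together, and not from a gene's own libraries alone.

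Each library held 2223 to 9112 cells and 1755 to 8208 microglia, with a median of 3978 to 5985 unique molecular identifiers (UMIs, tags of single captured RNA molecules) per microglia. The study's own annotation was used for cell types and microglial states. All 6 microglial markers were detected in microglia, at a summed level of 23668 CPM (UMIs of a gene per 1000000 UMIs of the same cells), against 1058 CPM in T cells and 3802 CPM in border-associated macrophages (BAM). The 4 T cell markers summed to 3537 CPM in T cells and 1.15 CPM in microglia. Nlrp3 had 0 UMIs in the microglia of all 5 Nlrp3KO libraries and lay between 34.4 and 53.7 CPM in the 5 libraries with intact Nlrp3. Of 45225 distinct cell barcode sequences, 246 occurred in more than 1 library.

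To show the regulatory sequence of genes whose levels moved together or apart in these libraries, the 250 bases upstream of the RefSeq start are given for 4 members on build GRCm38.p6, 5′ to 3′ on the gene's strand. Capitals mark the core of a cAMP response element (CRE, TGACGT or its reverse complement ACGTCA), the site bound by CREB and ATF proteins, and the full element TGACGTCA holds both. The windows lie at chr12:85473640-85473889 (+) for Fos, chr17:26508473-26508722 (-) for Dusp1, chr1:191183334-191183583 (-) for Atf3 and chr7:19310046-19310295 (-) for Fosb. They end at the base before the start used by RefSeq and are thus promoter sequence outside of the transcript that begins there.
Fos: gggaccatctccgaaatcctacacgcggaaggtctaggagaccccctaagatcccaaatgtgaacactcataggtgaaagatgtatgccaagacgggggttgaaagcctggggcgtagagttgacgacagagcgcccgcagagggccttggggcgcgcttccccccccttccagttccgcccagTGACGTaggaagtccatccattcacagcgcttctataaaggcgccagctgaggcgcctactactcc
Dusp1: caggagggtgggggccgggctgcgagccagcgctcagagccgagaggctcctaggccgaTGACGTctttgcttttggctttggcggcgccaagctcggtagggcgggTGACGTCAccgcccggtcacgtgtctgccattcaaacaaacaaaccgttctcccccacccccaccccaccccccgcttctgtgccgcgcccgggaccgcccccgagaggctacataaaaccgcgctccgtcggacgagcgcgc
Atf3: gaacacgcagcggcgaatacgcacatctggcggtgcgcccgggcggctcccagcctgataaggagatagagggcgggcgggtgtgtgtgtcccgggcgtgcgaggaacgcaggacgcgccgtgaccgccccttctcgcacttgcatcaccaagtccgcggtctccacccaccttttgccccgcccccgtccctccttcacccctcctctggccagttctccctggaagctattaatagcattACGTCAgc
Fosb: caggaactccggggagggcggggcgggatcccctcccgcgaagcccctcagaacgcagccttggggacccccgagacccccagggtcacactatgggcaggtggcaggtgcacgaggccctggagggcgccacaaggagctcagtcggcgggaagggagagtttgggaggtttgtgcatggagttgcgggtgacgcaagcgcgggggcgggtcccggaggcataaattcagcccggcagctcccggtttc
The core began 66 bases before the start of Fos and 8 bases before that of Atf3. The Dusp1 window had 3 matches on the 2 strands, of which 2 overlap in a full element that begins 143 bases before the start, and the other began 191 bases before it. None was found in the Fosb window, nor in those of Jun, Junb, Jund and Zfp36, so 3 of the 8 members with a window held the core. The window of Jund lies 1210 bases upstream of the gene start in the GENCODE annotation, and that start lies 1025 bases from the RefSeq start of Zfp36, 34706 bases from that of Atf3 and 53656 bases from that of Dusp1, whose windows are inside the longer gene. The count concerns these windows and no other promoter of a gene. Of 32851 mouse promoter windows of this length, 6.47% held the core and 1.55% the full element. A match is a description of these letters and was not set against binding.

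The first question was in which cells these genes were detected. Levels are given as CPM of the summed UMIs of a population in a library, for populations with at least 20 cells, and genes are compared between populations but not with each other. Fos ranged from 3.33 to 50.9 CPM in microglia over the 10 libraries, with a median of 21.1 CPM, and from 0 to 54.6 CPM in T cells, with a median of 15.03 CPM. BAM, the macrophages of the brain's borders, had 96.8 to 348 CPM of Fos, with a median of 162 CPM. Thus the lowest BAM library lay above the highest microglial library, whereas microglia and T cells overlapped over nearly their whole range. Monocytes had 243 and 690 CPM of Fos in the 2 libraries with enough cells.

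Jund showed another order. Its median was 809 CPM in NK cells, 685 CPM in B cells and 577 CPM in T cells, against 273 CPM in BAM and 202 CPM in microglia. The ranges of NK cells (428 to 1052 CPM) and T cells (92.7 to 700 CPM) overlapped. The T cell minimum is that of WT mice at 9 months, where NK cells were too few, and the other T cell libraries began at 259 CPM. Here and below, NK cells and B cells had enough cells in only some of the libraries, so their medians are over other sets of libraries than those of T cells, BAM and microglia. Junb was between 710 and 1135 CPM in ILC2, a type of innate lymphocyte, in 2 libraries, against 203 to 286 CPM in microglia. Ier2 ranged from 14.8 to 34.5 CPM in microglia, from 72.7 to 137 CPM in T cells and from 74.4 to 241 CPM in BAM, so microglia lay below both in every library and T cells and BAM overlapped.

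Atf3 was low in lymphocytes, whereas Zfp36 differed between them. Atf3 ranged from 19.1 to 31.1 CPM in microglia, from 18.7 to 76.7 CPM in BAM and from 0 to 9.48 CPM in T cells, and its highest library was at 7.95 CPM in NK cells and 2.23 CPM in B cells. For Zfp36 the medians were 124 CPM in microglia, 182 CPM in BAM, 27.7 CPM in T cells and 44.5 CPM in NK cells. B cells had a median of 106 CPM (82.6 to 139 CPM), which overlapped with microglia (103 to 182 CPM). UMIs of microglial markers in T cells corresponded to 0.381% to 15.3% of the microglial level, highest in WT mice at 6 months. RNA carried over at that share would account for 38.6% of the mean Atf3 level in T cells, 17.7% of Zfp36, 11.4% of Egr1 and 1.07% of Ier2.

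**Figure D1:**
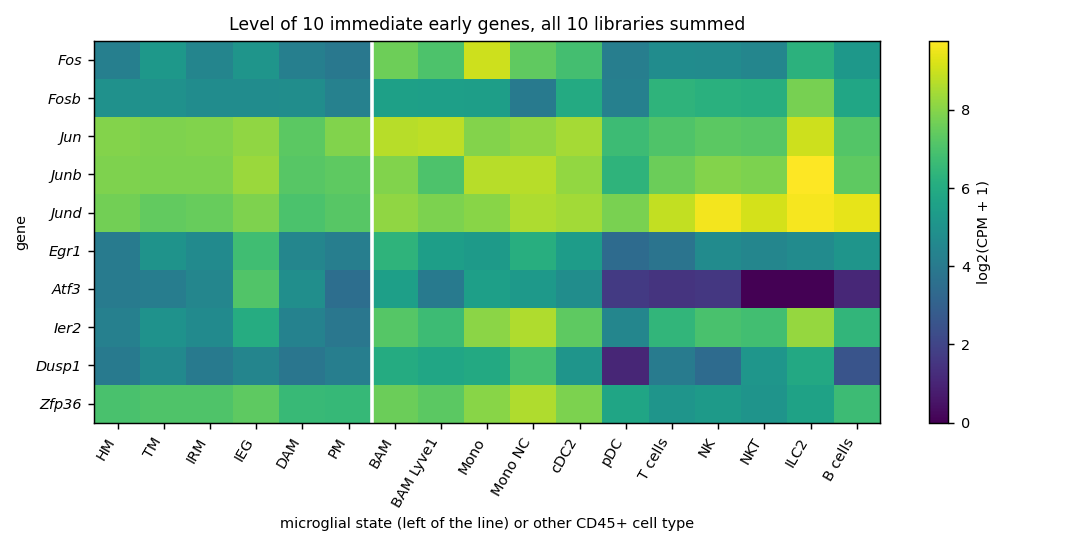
Heat map of the level of each of the 10 genes (rows) in the 6 microglial states and in other CD45+ cell types (columns, with a white line between the 2 kinds), as log2(CPM + 1) of the UMIs summed over all 10 libraries. Fos is brightest in monocytes and higher in BAM than in the microglial states, Jund is brightest in lymphocytes, and Atf3 is brightest in the IEG state.

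Among microglia, the authors named a state after these genes (IEG), which held 2094 of 40547 microglia, or 5.16%. The other states are homeostatic (HM), transitory (TM), interferon response (IRM), disease-associated (DAM) and proliferating (PM) microglia. The share of the IEG state was between 3.36% (WT, 9 months) and 9.74% (Nlrp3KO APP/PS1, 9 months) per library. Since the state was found by clustering the same cells, its levels are a description and were not tested. Relative to HM, the state had a median of 9.18 times the level of Atf3 over the libraries (range 2.84 to 21.1), 6.48 times that of Egr1 (2.25 to 30.8) and 3.16 times that of Ier2 (1.90 to 5.57). Those 3 genes were higher in the state in 10 of 10 libraries.

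The other members did not mark the state to that degree. The median ratio was 1.82 for Fos (range 0.625 to 3.29) and 1.20 for Dusp1 (0.541 to 2.02). Junb and Zfp36 were higher in the state in 10 of 10 libraries, with median ratios of 1.35 and 1.34. Fosb was lower in the state in 9 of 10 libraries, with a median ratio of 0.745. The state held 6.17% of all microglial UMIs, and 35.5% of the Atf3 UMIs, 28.7% of the Egr1 UMIs, 18.1% of the Ier2 UMIs and 5.53% of the Fosb UMIs of microglia. The authors' annotation of all CD45+ cells assigned 1237 microglia to the state, of which 1118 are among the 2094. With all libraries summed, its ratios of the state to HM were 13.5 for Atf3, 11.8 for Egr1 and 5.07 for Ier2, against 8.73, 6.83 and 3.58 by the annotation of the microglia. Those of Fos and Fosb were 1.68 and 0.631, against 1.86 and 0.874.

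**Figure D2:**
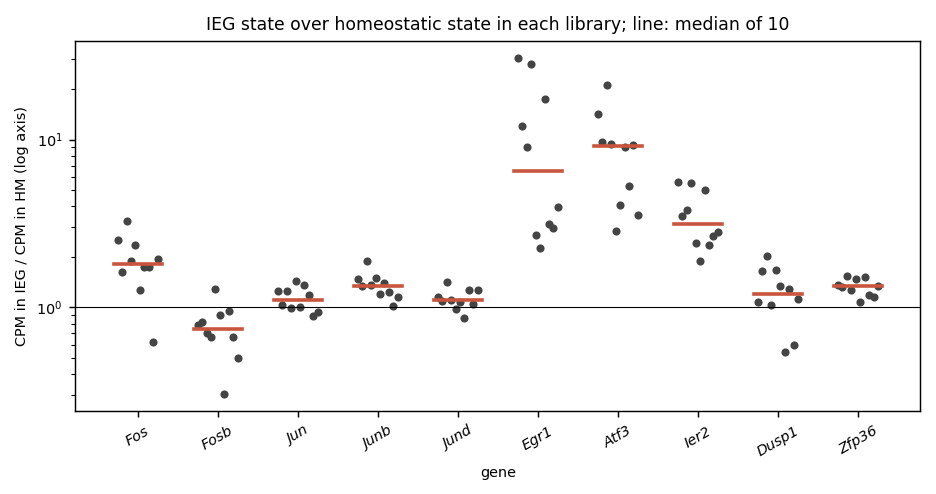
Ratio of the CPM level in the IEG state to that in homeostatic microglia (log axis) for each gene, with 1 point per library, a red line at the median and a black line at a ratio of 1. Atf3, Egr1 and Ier2 lie above 1 in all 10 libraries, whereas Fosb lies below it in 9 of them.

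To see how the genes varied between libraries, levels were compared over all microglia. For Fos, the libraries of 3 months had 4.54 CPM (WT), 12.9 CPM (Nlrp3KO), 20.1 CPM (APP/PS1) and 3.33 CPM (Nlrp3KO APP/PS1). Those of 6 months had 50.9 CPM (WT) and 40.1 CPM (Nlrp3KO), and those of 9 months 17.5, 37.6, 35.3 and 22.1 CPM in the same genotype order as at 3 months. The highest library thus had 15.3 times the lowest, and both 6-month libraries were above all others.

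Fosb had 12.1, 26.6, 26.2 and 10.5 CPM at 3 months, 62.0 and 45.5 CPM at 6 months and 24.8, 49.6, 38.6 and 36.8 CPM at 9 months, in the order above. For Dusp1, the levels were 5.38, 12.7, 13.3 and 4.39 CPM at 3 months, 33.8 and 24.2 CPM at 6 months and 16.1, 40.0, 23.9 and 23.3 CPM at 9 months. Those of Egr1 were 9.99, 13.3, 23.5 and 11.1 CPM, then 45.3 and 35.3 CPM, then 12.9, 37.6, 56.8 and 36.3 CPM. In each of these 4 genes WT and Nlrp3KO APP/PS1 were the 2 lowest libraries of 3 months and also of 9 months, with WT the lowest of 9 months. At 9 months Nlrp3KO APP/PS1 was close to the next library for Fosb (36.8 and 38.6 CPM), Dusp1 (23.3 and 23.9 CPM) and Egr1 (36.3 and 37.6 CPM).

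The remaining members spanned less, except Jund. Jun was between 198 and 391 CPM, Junb between 203 and 286 CPM, Atf3 between 19.1 and 31.1 CPM, Ier2 between 14.8 and 34.5 CPM and Zfp36 between 103 and 182 CPM. Jund was between 182 and 280 CPM in 8 libraries. It fell outside that range in 2 libraries of 9 months, at 128 CPM in APP/PS1 and 32.8 CPM in WT mice.

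**Figure D3:**
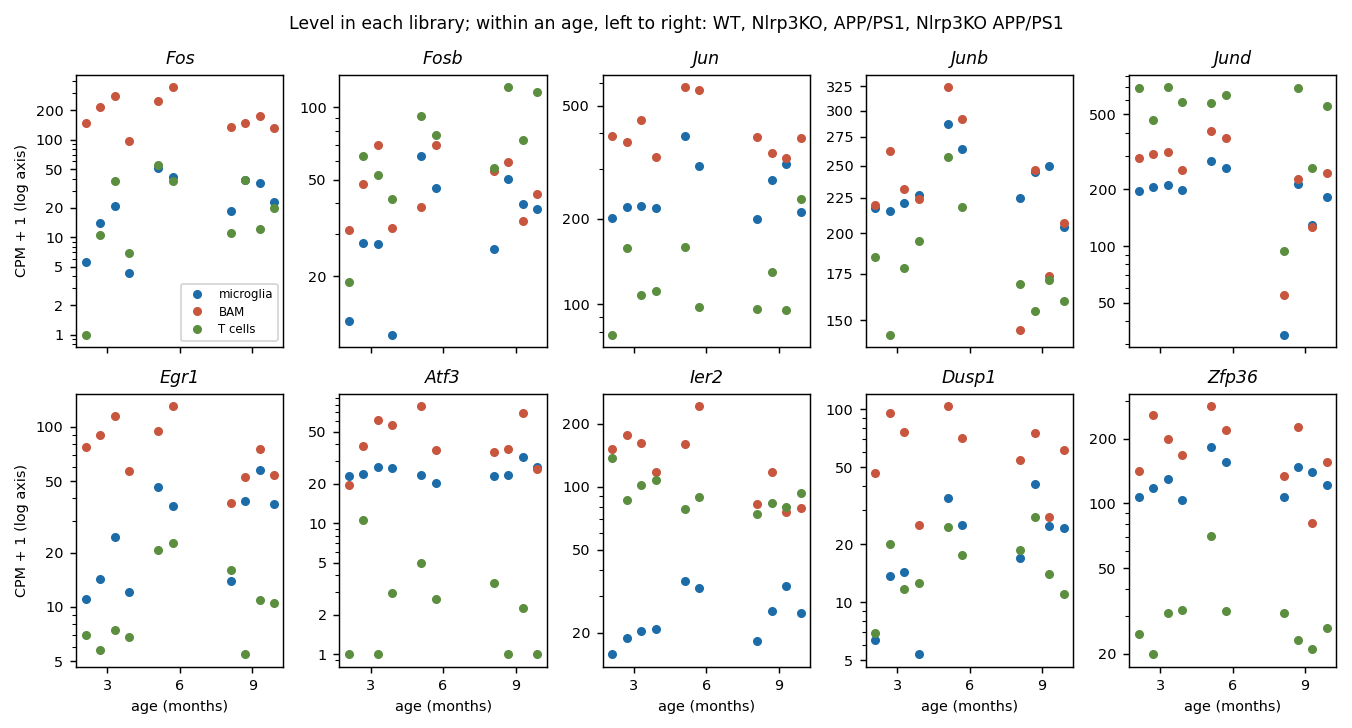
Level of each gene (CPM + 1, log axis) in microglia, BAM and T cells of the 10 libraries, with 1 panel per gene and 1 point per library and cell type, placed by age in months and within an age in the order WT, Nlrp3KO, APP/PS1, Nlrp3KO APP/PS1. Fos in microglia runs from 3.33 to 50.9 CPM, and Jund is lowest in WT mice of 9 months in all 3 cell types.

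The comparison of 9 with 3 months in microglia, over the 4 genotypes as pairs, called 4 of the 10 genes. A gene was called where its adjusted p was under 0.05 and its log2 fold change was beyond 1 in either direction. All 4 were higher at 9 months, and 3.91% of the 12282 genes tested were called in either direction and 3.28% as higher. The mean level went from 10.2 ± 7.83 to 28.1 ± 9.85 CPM for Fos and from 18.8 ± 8.76 to 37.4 ± 10.1 CPM for Fosb (SD, n = 4 libraries each). It went from 14.5 ± 6.18 to 35.9 ± 17.99 CPM for Egr1 and from 8.93 ± 4.69 to 25.8 ± 10.1 CPM for Dusp1. By edgeR's quasi-likelihood test, the log2 fold change was 1.76 (SE 0.27, adjusted p = 0.0074) for Fos, 1.14 (SE 0.19, adjusted p = 0.0092) for Fosb, 1.33 (SE 0.21, adjusted p = 0.0072) for Egr1 and 1.68 (SE 0.22, adjusted p = 0.0050) for Dusp1. All 4 were higher in 4 of 4 genotypes.

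The groups still overlapped for Fos, Fosb and Egr1, since the lowest libraries of 9 months lay under the highest of 3 months. Dusp1 was the only member whose 9-month libraries all lay above all 3-month libraries, where 8.06% of the 6328 genes with a mean of at least 20 CPM did so. Dusp1 itself is not among these 6328, with a mean of 19.7 CPM. Ier2 (log2 fold change 0.51, SE 0.10, edgeR adjusted p = 0.014) and Zfp36 (0.25, SE 0.07, edgeR adjusted p = 0.037) passed the adjusted p and not the fold limit. On the adjusted p alone, 6 of 10 members passed, all higher at 9 months, against 23.3% of genes in either direction and 12.7% as higher. Jun, Junb and Atf3 had log2 fold changes of 0.27, 0.15 and 0.14, and Jund had -0.68 (SE 0.40, edgeR adjusted p = 0.25), or -0.16 without the WT pair. With no block for the genotype pairs, 2 genes were called, Egr1 and Dusp1, and edgeR gave adjusted p = 0.061 for Fos and 0.053 for Fosb. Without the APP/PS1 pair, edgeR gave Egr1 an adjusted p of 0.051, and without the Nlrp3KO APP/PS1 pair the log2 fold change of Fosb was 0.89, so 3 genes were called in either case.

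The changes were not confined to the IEG state. In homeostatic microglia alone, and in microglia without the state, 4 members were called as well. Age is also batch in these libraries, so the 4 genes differ between the sets of libraries of the 2 ages and no more can be said.

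Nlrp3 deletion and the APP/PS1 transgenes did not give a called member in microglia. For Nlrp3, compared over 5 pairs of the same age and background, 0 of 10 members were called by edgeR or by DESeq2, and 0 had an unadjusted p under 0.05, against 0.0242% of 12383 genes called. The log2 fold changes lay between -0.16 (Fos, SE 0.49) and 0.54 (Jund, SE 0.37). Over the alternatives listed below, the value of Fos ran from -0.55 to 0.34 and that of Jund from 0.10 to 0.72. The Jund comparison includes the WT library of 9 months at 32.8 CPM. For APP/PS1 over 4 pairs, 0 of 10 were called by either tool, against 0.0407% of 12282 genes called by edgeR. At an unadjusted p under 0.05, with no share of all genes set beside it, there were 2 members. These were Atf3 (log2 fold change 0.28, SE 0.08, edgeR adjusted p = 0.43), higher in 4 of 4 pairs, and Ier2 (0.35, SE 0.14, edgeR adjusted p = 0.63), which had 0.18 when the 9-month pair with intact Nlrp3 was left out. In homeostatic microglia alone the Atf3 value was -0.04.

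The effect of Nlrp3 deletion was also compared between APP/PS1 and non-diseased microglia. No member was called (0.0% of 12383 genes) by edgeR. The difference was -2.21 for Fos (SE 0.70, unadjusted p = 0.017) and -1.29 for Egr1 (SE 0.49, unadjusted p = 0.034), both with an edgeR adjusted p of 1, and 310 genes in all had an unadjusted p under 0.05. With single pairs left out, the value of Fos ran from -3.24 (without APP/PS1 at 9 months) to -1.29 (without APP/PS1 at 3 months) and that of Egr1 from -1.79 (without the pair of 6 months) to -0.82 (without the non-diseased pair of 9 months). The comparisons of Nlrp3, APP/PS1 and age share libraries with each other.

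**Figure D4:**
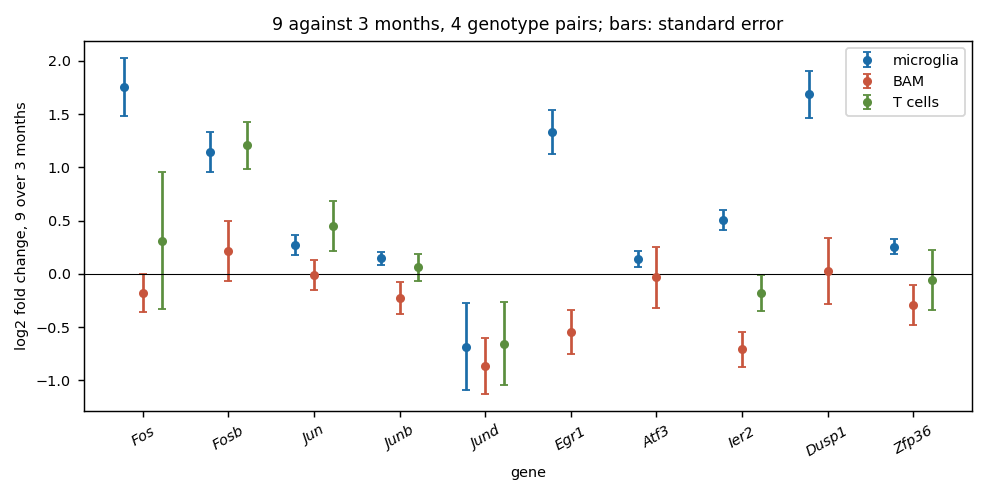
Log2 fold change of 9 against 3 months for each gene in microglia, T cells and BAM, with the standard error of the edgeR fit as bars and a line at 0; genes too low to test in T cells have no T cell point. Fos, Fosb, Egr1 and Dusp1 are called as higher in microglia (1.76, 1.14, 1.33 and 1.68), whereas in BAM Fos and Egr1 stand at -0.18 and -0.55.

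Whether libraries differed in the same way in other cells was asked first in T cells, the largest other cell type with 1598 cells. Fos in T cells was 0, 9.48, 36.4 and 5.83 CPM at 3 months (WT, Nlrp3KO, APP/PS1, Nlrp3KO APP/PS1), 54.6 and 36.5 CPM at 6 months and 10.0, 37.9, 11.1 and 19.0 CPM at 9 months. In WT at 3 months the 0 rests on 168261 UMIs, which allow a level of up to 17.8 CPM. The 3-month values rest on 0, 2, 17 and 3 UMIs of Fos in that order, so the rank of WT, Nlrp3KO and Nlrp3KO APP/PS1 is not resolved in T cells. The WT library of 6 months was the highest, as in microglia. Fosb in T cells was 17.8, 61.6, 51.3 and 40.8 CPM at 3 months, 90.6 and 75.4 CPM at 6 months and 55.1, 120, 72.5 and 114 CPM at 9 months.

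Of the 7 members with enough counts in T cells, 1 was called between 9 and 3 months, against 1.17% of 6174 genes. Fosb was higher by a log2 fold change of 1.21 (SE 0.23, edgeR adjusted p = 0.020), in 4 of 4 genotypes. Its younger WT library, the lowest, rests on 3 UMIs of Fosb in T cells, with a Poisson interval of 3.68 to 52.1 CPM. Nlrp3KO, APP/PS1 and Nlrp3KO APP/PS1 mice of that age had 13, 24 and 21 UMIs. The call was lost without the WT, the Nlrp3KO or the Nlrp3KO APP/PS1 pair, with edgeR adjusted p = 0.058, 0.064 and 0.16. Fos had a log2 fold change of 0.31 (SE 0.65, edgeR adjusted p = 0.89), and without single pairs it was as low as -0.24. No member was called for Nlrp3 (0 of 8 tested, 0.0% of 6507 genes) or for APP/PS1 (0 of 7, 0.162% of 6174 genes), and 0 had an unadjusted p under 0.05 in either by edgeR.

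The difference between cell types was tested itself, as the age effect in T cells minus that in microglia. No member was called by edgeR, against 0.501% of 12370 genes called. At an unadjusted p under 0.05, with no share of all genes set beside it, there were 3 members. These were Ier2 (difference -0.72, SE 0.22, edgeR adjusted p = 0.14), Fos (-1.27, SE 0.49, edgeR adjusted p = 0.34) and Dusp1 (-1.16, SE 0.47, edgeR adjusted p = 0.39). The difference of Fos was -0.024 without the APP/PS1 pair, and that of Dusp1 was -0.62 without the Nlrp3KO APP/PS1 pair. For Fosb the difference was 0.05 (SE 0.26). DESeq2 called 0 and gave 7 members no adjusted p. Nor was a member called for the difference of the Nlrp3 effect (0.0% of 12449 genes) or of the APP/PS1 effect (0.097% of 12370 genes) by edgeR, and 0 members had an unadjusted p under 0.05 in either.

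BAM, examined after the T cell values were seen, differed from microglia in the comparison of the ages, which are also batches. Fos in BAM was 149, 214, 278 and 96.8 CPM at 3 months, 248 and 348 CPM at 6 months and 133, 149, 176 and 130 CPM at 9 months, in the order above. WT and Nlrp3KO APP/PS1 were again the 2 lowest libraries of 3 months, and also of 9 months, on 46 to 59 UMIs of Fos per 9-month library. In T cells the 2 lowest of 9 months were WT and APP/PS1. In BAM, Fos at 9 months was higher than at 3 months in only 1 of 4 genotypes. Egr1 in BAM was 76.1, 88.8, 114 and 56.0 CPM at 3 months and 36.7, 51.7, 74.4 and 52.7 CPM at 9 months, lower at 9 months in 4 of 4 genotypes. Ier2 was 151, 176, 160 and 117 CPM at 3 months and 82.0, 116, 74.4 and 77.8 CPM at 9 months, with no overlap between the ages. Jund did not overlap either, so 2 of 10 members were lower in this way, against 5.99% of 5411 genes with a mean of at least 20 CPM. No member passed both limits between the ages in BAM (0 of 10 by edgeR, against 0.894% of 5928 genes called). An unadjusted p under 0.05, with no share of all genes set beside it, was found for 3 members. Ier2 had a log2 fold change of -0.71 (SE 0.16, edgeR adjusted p = 0.034).

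The age effect in BAM minus that in microglia was called for 4 of 10 members, against 0.302% of 11913 genes, and 0.277% called as lower in BAM. It was -2.01 for Fos (SE 0.22, edgeR adjusted p = 1.6e-08), -2.02 for Egr1 (SE 0.24, edgeR adjusted p = 6.7e-08), -1.28 for Ier2 (SE 0.22, edgeR adjusted p = 0.00026) and -1.73 for Dusp1 (SE 0.27, edgeR adjusted p = 4.4e-05). DESeq2 gave these 4 genes no adjusted p. The small edgeR p-values rest in part on a spread estimated over all genes, and not on the libraries of these 4 genes alone. Per library, BAM exceeded microglia in Fos by a mean of 4.23 ± 0.477 at 3 months and 2.40 ± 0.380 at 9 months on the log2(CPM + 1) scale (SD, n = 4). The libraries of the 2 ages did not overlap in that difference for the same 4 genes (two-sided exact permutation p = 0.0286 each, the smallest that 4 against 4 libraries allow). Of 4968 genes with a mean of at least 20 CPM in both, which include 3 of these 4 and not Dusp1, 3.46% had their 9-month values all lower in this way. In T cells only Ier2 did so, against 6.84% of 4651 genes. Summed microglial markers in BAM were 14.1% to 17.9% of the microglial level in all libraries, and their part in the result was not tested. Nlrp3 deletion called 0 of 10 members in BAM (0.0746% of 6700 genes) and APP/PS1 0 of 10 (0.27% of 5928 genes, with 1 member at an unadjusted p under 0.05). The effects in BAM minus those in microglia called 0 members for Nlrp3 (0.00835% of 11973 genes) and 0 for APP/PS1 (0.227% of 11913 genes, with 2 members at an unadjusted p under 0.05) by edgeR. The counts at an unadjusted p have no share of all genes beside them.

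A profile common to many populations was measured as the share of a gene's variance between libraries and populations that libraries alone account for. It was taken over 8 populations, the 6 microglial states, T cells and BAM, after each population's own mean was removed. The share is 12.5% where populations do not go together, and its median over 6291 genes was 20.8%. It was 94.5% for Jund, 74.7% for Fos, 71.0% for Fosb and 62.1% for Dusp1. Junb, Jun, Zfp36 and Egr1 had between 52.4% and 53.1%, whereas Ier2 had 24.6% and Atf3 14.3%. Atf3 had 0 to 8 UMIs per library in T cells and 1 to 9 in PM. Counting error at such levels can lower the share, and its part was not tested. With the mean of each age removed as well, the share was 94.3% for Jund, 61.9% for Fos, 59.7% for Fosb and 43.0% for Dusp1, against a median of 15.99%, and 17.6% for Junb. The populations share a library and, for the 6 states, a clustering, so these shares are a description.

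Fos lay above its population mean in 8 of 8 populations in both 6-month libraries and in 0 of 8 in WT and in Nlrp3KO APP/PS1 mice at 3 months. Chosen after the values were seen, the order at 3 months was examined in the 11 populations with at least 20 cells in all 4 libraries, which are the 6 microglial states, T cells, BAM, Lyve1 BAM, NK cells and B cells. WT and Nlrp3KO APP/PS1 were both lower than the other 2 libraries in 9 of 11 populations for Fos, in 10 for Fosb, in 7 for Dusp1, in 6 for Zfp36 and in 0 for Atf3. Fos lacked that order in NK cells (10.42, 11.9, 14.4 and 24.6 CPM for WT, Nlrp3KO, APP/PS1 and Nlrp3KO APP/PS1) and in B cells (27.8, 76.5, 16.8 and 16.7 CPM), on 2 to 25 UMIs per library. Among the populations counted as having the order, Fos had 1 to 3 UMIs per library in DAM, 1 to 7 in PM and 0 to 17 in T cells, where the ranks are not resolved. It had 82 to 288 UMIs in HM, 76 to 134 in BAM and 14 to 53 in Lyve1 BAM. WT and Nlrp3KO APP/PS1 differ in both the Nlrp3 genotype and the transgenes. The comparison of the Nlrp3 effect between backgrounds above measures the same contrast of genotypes, with no member called. The cause of the order was not tested. Egr1, Ier2, Jund and Junb had that order in 4 populations and Jun in 1. Over the 8 populations used for the library share, the median of 6291 genes was 1 population with that order. It was present in at least 6 of these 8 for 0.366% of genes and in all 8 for 2 genes, Fos and Fosb themselves. Dusp1 and Zfp36 had it in 5 of the 8. The order was read from Fos and its relatives in microglia, and 6 of the populations are parts of those microglia, so these counts are a description.

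Because 6 of the 8 populations are states of microglia, the library share was also taken over microglia, T cells and BAM alone, where it is 33.3% if they do not go together and had a median of 39.4% over 6125 genes. It was 96.3% for Jund, 71.7% for Fosb, 70.2% for Fos, 69.0% for Dusp1, 43.6% for Atf3 and 31.8% for Ier2. Junb had 65.0%, Zfp36 60.2%, Egr1 52.4% and Jun 45.3%. With the mean of each age removed as well, the median over genes was 35.9%. Jund then had 95.9%, Dusp1 72.2%, Fosb 68.7%, Fos 65.1% and Atf3 44.6%. Zfp36 had 40.5%, Egr1 38.1%, Jun 31.7%, Junb 26.6% and Ier2 24.0%. These shares were added after seeing the data. The age effect of Fos and Dusp1 differed between BAM and microglia in the test above. Over libraries, r of Fos between BAM and microglia was 0.59 (permutation adjusted p = 0.32), and 0.86 with the mean of each age removed (exact permutation p = 0.028, adjusted p = 0.64). Dissociation was not measured separately from the library.

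**Figure D5:**
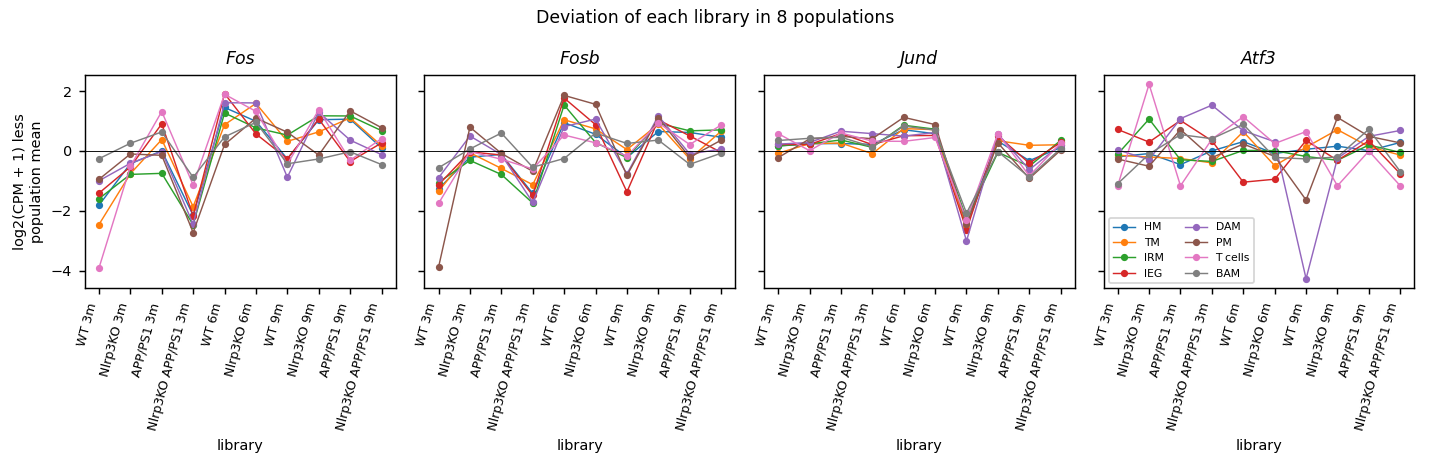
Deviation of Fos, Fosb, Jund and Atf3 from their own mean in each of 8 populations, on the log2(CPM + 1) scale, across the 10 libraries, with 1 line per population. The lines of Fos and Fosb share much of their course (library share 74.7% and 71.0%), and Jund drops in all 8 populations in WT mice of 9 months. Those of Atf3 share little (14.3%), on 0 to 8 UMIs per library in T cells and 1 to 9 in PM.

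Over all 10 libraries Jund was the member with the most uniform profile, and 2 libraries carried much of it. Its library share of 94.5% was 73.7% without WT mice of 9 months and 55.1% without APP/PS1 mice of 9 months as well. Without both libraries, Fos (78.8%), Fosb (74.2%), Dusp1 (69.6%), Junb (64.6%) and Zfp36 (61.3%) lay above Jund. With the mean of each age removed as well, Jund then had 31.3%. In WT mice at 9 months it stood at 35.3 CPM in homeostatic microglia against a median of 208 CPM in the other 9 libraries, which is 5.88 times as high. In T cells it was 92.7 against 579 CPM (6.24 times) and in BAM 53.7 against 293 CPM (5.46 times). APP/PS1 mice at 9 months had the next lowest level in each of microglia, T cells and BAM, with 128, 259 and 125 CPM. In microglia of the WT library of 9 months, 143 of 6328 genes were lower by more than 1 on the log2 scale than the mean of the other libraries of that age, against 1 to 13 genes when each other library was treated in the same way. In T cells the other libraries had 25 to 388 such genes, and the WT library of 9 months had 275 of 5533. The last 500 bases of the Jund transcript have a GC content of 56.2%, at the 93.0 percentile of 21877 genes. Ier2 (55.2%, 90.8 percentile) and Junb (53.6%, 86.6 percentile) were close to it. Genes of high GC content exceeded those of low GC content by 0.040 on the log2 scale in that library, the highest of the 10 values, with -0.045 to 0.025 in the others. In T cells, where Jund deviated from the other libraries of 9 months by -2.31, against -2.34 in microglia, that value was 0.053, within the -0.067 to 0.067 of the other libraries. The part of GC content in the Jund level was not tested.

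Over the 10 libraries, the levels of 7 members in microglia and T cells were correlated on the log2(CPM + 1) scale, with 100000 permutations. Fosb was called, with r = 0.85 (permutation p = 0.0012, adjusted p = 0.037) and rho = 0.88, against 4.43% of 4651 genes called. Fos had r = 0.82 (permutation adjusted p = 0.054) and rho = 0.93, and Jund had r = 0.95 (permutation adjusted p = 0.075) and rho = 0.55. By rho the call passed from Fosb (permutation adjusted p = 0.069) to Fos (permutation adjusted p = 0.039), with 1.51% of genes called. Without the 2 libraries farthest from the median, r was 0.74 for Fosb, 0.69 for Fos and 0.05 for Jund, so the Jund relation rests on WT and APP/PS1 mice of 9 months. Without the WT library alone, r for Jund was 0.72 (permutation adjusted p = 0.34). Within ages, r was 0.74 for Fosb, 0.73 for Fos and 0.95 for Jund, with exact permutation p = 0.038, 0.11 and 0.029, and 0 members were called (0.0% of genes). The call for Fosb was lost without any of 9 single libraries, the exception being Nlrp3KO APP/PS1 at 9 months. Its lowest T cell level, in WT mice of 3 months, rests on 3 UMIs. Ier2 had r = -0.55 (permutation adjusted p = 0.36), which was -0.29 without WT mice of 3 months and -0.80 without WT mice of 9 months. The median r was 0.74 over the members and 0.28 over all genes. The median over the members was 0.35 on age-centred values, 0.38 without cells of a high doublet score (6 members), 0.51 with homeostatic microglia and 0.49 without the WT library of 6 months. In BAM, r with microglia was called for Jund alone (r = 0.96, permutation adjusted p = 0.020, 3.5% of 4968 genes), and 0 members were called within ages.

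Other genes of the response were taken from lists. Of 33 further immediate early genes, 29 were tested in microglia between 9 and 3 months, and 2 were called as higher and 1 as lower, against 3.91% of all genes called. Their median log2 fold change was 0.08, against 0.0015 for all genes. Egr2, a relative of Egr1, had 1.20 (SE 0.18, edgeR adjusted p = 0.0064). Cebpb, a transcription factor of myeloid cells, had -3.25 (SE 0.44, edgeR adjusted p = 0.0051) in microglia, -2.98 (edgeR adjusted p = 0.0037) in T cells and -2.87 (edgeR adjusted p = 7.7e-05) in BAM. Klf2, a factor of quiescent lymphocytes and endothelium, was called as lower in T cells (-2.05) and in BAM (-1.9997). In all, 2 of 17 tested genes of this list were called in T cells (1.17% of all genes) and 2 of 19 in BAM (0.894% of all genes). For Klf2, its age effect in BAM minus that in microglia was -1.88 (edgeR adjusted p = 1.5e-09).

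Of 13 upstream factors and kinases none was called between the ages in microglia. Srf had a log2 fold change of -0.42 (SE 0.09, edgeR adjusted p = 0.023) and Mapk14, the p38 kinase, -0.44 (SE 0.08, edgeR adjusted p = 0.0095), both under the fold limit. Of 12 early targets and NF-kB response genes, 11 were tested and Tnf was called as higher (1.04, SE 0.12, edgeR adjusted p = 0.0034). Of the 9 heat shock genes, which also respond to stress of cells, none was called in microglia (median -0.10), while Hspa1a (-2.42) and Hspa1b (-2.67) were called as lower at 9 months in BAM, where all 9 were tested and 0.894% of genes were called by edgeR. DESeq2 called 1 of these 9 in BAM. Neither of the 2 relatives of Zfp36 was called. Over all these lists, the age effect in T cells minus that in microglia was called by edgeR for 2 of 66 genes tested (0.501% of all genes). In BAM minus microglia it was called for 3 of 67 (0.302% of all genes). DESeq2 called 0 and 1 of these. For the APP/PS1 effect, edgeR called 1 of 66 in T cells minus microglia and 1 of 67 in BAM minus microglia (0.097% and 0.227% of all genes), and DESeq2 called 0 in both. Between APP/PS1 and non-diseased microglia, the chemokine gene Ccl4 was the only one of 64 genes of these lists to be called by edgeR (1.34, SE 0.13, edgeR adjusted p = 0.028), against 0.0407% of all genes by edgeR. DESeq2 called 3 of the 64, a count that the edgeR share does not apply to. Between Nlrp3 genotypes 0 of 64 were called in microglia by edgeR or by DESeq2, against 0.0242% of all genes by edgeR. In edgeR, 8 of the 64 had an unadjusted p under 0.05 between Nlrp3 genotypes and 17 between APP/PS1 and non-diseased microglia. These counts at an unadjusted p have no share of all genes beside them and are a description.

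The genes whose levels in homeostatic microglia were most alike to the mean of the members, over 10 libraries with the mean of each age removed and among 3378 genes with a mean of at least 50 CPM, were Rgs1 (r = 0.97), Tle4 (r = 0.95), Cggbp1 (r = 0.94), Neat1 (r = 0.94) and Dennd6a (r = 0.93). Rgs1, a regulator of G-protein signaling that is itself counted among early response genes, ranged from 41.9 to 98.9 CPM. These values are a description of 10 libraries.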

How the data were processed

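CD45+ brain cells of 10 libraries were profiled by the authors with 10x Genomics 3′ chemistry and processed with Cell Ranger on mm10. Cells far from the median quality were removed, and clusters were annotated with Seurat after integration. The authors deposited raw UMI counts per gene and cell with no normalization, and 2 annotation tables. The deposited annotation of all cells lists per cell a mitochondrial percent, a ribosomal protein fraction and a doublet score from 0 to 1, all calculated by the authors. Of 52369 cells, 6897 under 2 names that match no sample description were not used here, which left 45472 cells. Doublets were kept, and 7.63% of microglia and 5.94% of T cells had a doublet score over 0.5.

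UMI counts were summed per library and cell type, since cells are not replicates. All genes were tested in edgeR 4.0.16 (R 4.3.3) by its quasi-likelihood test, with filterByExpr, TMM and library pairs as block. Pairs were formed from age and genotype in the labels. A gene was called where the Benjamini-Hochberg adjusted p was under 0.05 and the log2 fold change was beyond 1 in either direction. Differences between cell types were interactions with the library as block. Correlations used genes with a mean of at least 20 CPM in both cell types and a pseudocount of 1. CPM are UMIs of a gene divided by all UMIs of the summed cells, times 1000000. Beside a level of 0, the level that 3 UMIs would give is stated as its upper limit. Poisson intervals (95%) and this limit cover counting error only. Scripts were tested on simulated data.

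The 10 members and all lists were chosen with earlier results of these data known. Genes named outside the members are among the 3 of each list with the smallest p, those called, and those most alike to the members. Not every called gene of the lists is named. Alternatives were DESeq2 1.42.0, its size factors, no filter on low counts, no pair block, homeostatic microglia only, no IEG state, no cells over the doublet limit, the adjusted p alone, other pseudocounts and minimum levels, and leaving out each pair or library. BAM, all tests on them, and library shares over 3 cell types or without single libraries, and the order at 3 months were added after seeing the data. Promoters are from RefSeq (GRCm38.p6). Of the members, 8 have an entry. Ier2 and Egr1 are named only.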

Additional observations from a re-analysis of the deposited data

Results flagged for a closer look

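Differences between cell types in the effect of age were found for 4 members when BAM were set against microglia. The age effect in BAM minus that in microglia was -2.01 for Fos, -2.02 for Egr1, -1.28 for Ier2 and -1.73 for Dusp1 on the log2 scale. Each passed the test of the difference itself in edgeR, and the comparison was chosen after the values of other cell types were seen. Without the WT pair 5 members were called and without each other pair 4. In 60 groups of 4 libraries, Dixon's gap test at the 95% level set no library apart. That test needs a wide gap with 4 libraries. Jund of WT mice at 9 months, at 32.8 CPM in microglia, had a gap to the next library of 0.528 of the group's range and did not reach it.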

How the results depend on the processing

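Of 47 recomputed counts of called members with a reported count above 0, 30 stayed within 1.5 times that count. A further 122 belong to reported counts of 0, of which 121 stayed at 0, and these say little about stability. DESeq2 for the age difference between BAM and microglia is in neither set. It gave the 4 called genes no adjusted p and called 0 of 10 members. With no replicate block for the genotype pairs, 2 members were called between 9 and 3 months in microglia in place of 4. For the correlation of microglia and T cells, 0 members were called on age-centred values, 2 on log2(CPM + 5), 0 with a mean of at least 5 CPM and 0 after carried-over microglial RNA was subtracted, in place of 1. For BAM, the age-centred count was 0 in place of 1. With single pairs or libraries left out, the counts ran from 3 to 4 for age in microglia, from 0 to 1 for age in T cells, from 0 to 1 for age in BAM, from 4 to 5 for the age difference between BAM and microglia and from 0 to 1 for the correlation with T cells. Atf3 turned to -0.042 for APP/PS1 in homeostatic microglia, and Fos ran from -0.24 (without the Nlrp3KO APP/PS1 pair) to 0.16 (without the WT pair) for age in T cells. The reported Fos value of 0.31 lies outside that range, and fewer alternatives could be compared for Fos in T cells than for Fosb. The cause was not tested. Of 240 values of single members, 229 kept their direction and their side of the limits, 7 lost a call, 2 gained one and 2 changed sign. Many of the 240 belong to members not called in the reported fit. For these, being kept means only the same sign and no call, which says little about stability. T cells numbered 27 to 504 and BAM 41 to 128 per library, which limits what could be detected there.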
